A study of Drosophila melanogaster with 41 samples.

Results

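In Drosophila melanogaster, 487 of 84619 counted exon bins were long terminal bins that lay outside the neuronal 3′ UTRs listed by the study. An exon bin is a stretch of annotated exon between neighbouring exon borders of a gene, and the terminal bin is the 3′-most bin of the gene on its strand. Members were taken from genes with at least 3 bins, had to be at least 2000 nt long, and could not overlap on the same strand any of the 271 neuronal 3′ UTR regions that the study listed. Of 10092 genes with at least 3 bins, 487 met the rule, 76 had an equally long terminal bin that overlapped a listed region, and 9380 and 149 had shorter terminal bins outside and inside the listed regions. The rule used length, position and the list, not the counts. The list is the same in every table and holds 3′ UTRs that the methods trace to earlier work on the targets of ELAV and FNE, so a low number of changes among regions left off it is not independent evidence. Some members are off the list by decision. According to its methods the study set aside a few genes found as ELAV targets in earlier work, CG16779, px, bru3 and Bsg among them, because it traced their differences to unlike genetic backgrounds of the fly strains. At the length limit, the terminal bins of Cyp317a1 (2000 nt), PNUTS (2001 nt) and Atg4a (2002 nt) were members and those of CG11380 (1997 nt), l(3)L1231 (1997 nt) and CARPA (1994 nt) were not. In wt embryos they held 79.2%, 16.7% and 21.8% of the counts of their gene inside the limit and 72.9%, 20.7% and 26.5% outside it.

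The data were 41 mRNA-seq libraries in 11 groups, all from male animals, made to compare mRNA isoforms between flies that lack or have little of the RNA-binding protein ELAV and flies that make the nuclear form of its paralogue FNE (nFNE). Whole embryos at 14-16 h after egg laying (AEL) were wt, delta-elav, elavmin and delta-elav,fnenFNE, with 4 libraries each. Heads, labelled adult at 72 h AH and stated in the study's methods to be from adults, were wt, elavmin and delta-elav,fnenFNE, with 3 libraries each. Whole embryos at 7-8 h AEL were fnenFNE, which the labels call the control group, elavmin,fnenFNE, delta-elav,fnenFNE and elavnFNE, with 4 libraries each. delta-elav removes the elav coding sequence and is lethal in the embryo. elavmin carries a frameshift in the last RNA-recognition motif of ELAV, which leaves very little of a truncated protein, and its animals are viable. In fnenFNE, the introns that flank the fne mini-exon are removed and a tagged nFNE is made from the fne gene. In elavnFNE, the coding region of elav is replaced by that of nFNE, and the methods give the fne gene of these flies as an allele without the mini-exon, so they differ from fnenFNE at both genes. Each 7-8 h group apart from elavnFNE carries fnenFNE, so no 7-8 h group is wt. Mutant embryos were picked by hand against fluorescent balancers, and each library is a pool of animals. The labels do not state that replicate pools came from separate crosses, so the p-values measure the spread between these pools. Reads of the 7-8 h libraries were shorter than those of all others, and stage and read length cannot be told apart. Because whole embryos and heads were sequenced, fewer cells of a type and less RNA per cell cannot be told apart either.

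A gene can end its transcripts at more than 1 poly(A) site. Depending on where it lies, a distal site lengthens the 3′ UTR, which is more common, or changes the coding region. Neurons of flies and mammals use distal sites more than most other tissues. In flies ELAV and nuclear FNE bind near proximal sites and let the polymerase read through, so that the extended 3′ UTR is made. A terminal bin is used less when transcripts end upstream of it or splice to another last exon.

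The ends of 6 members are printed because they carry the poly(A) signal AATAAA, shown in capitals, and because these terminal bins carry results given below. Each line is 30 bases of the transcribed strand, written 5′ to 3′, from RefSeq's Release 6 genome (dm6).
Bsg, plus strand, chr2L:8116499-8116528: aaaacaaattaaAATAAAaattttatttag
bru3, minus strand, chr3L:13521918-13521947: aaagttgcaaatAATAAActtttaccataa
CG16779, minus strand, chr3R:9461087-9461116: acacaaaacgaaAATAAAgtggtggtcgta
krz, minus strand, chr3R:32045319-32045348: taaatttgcaatAATAAAatcgacaaaaat
orb, minus strand, chr3R:23260611-23260640: gaaataacagatAATAAAggacacacagac
Hr4, plus strand, chrX:2007922-2007951: gatgtatttacgAATAAAattaatattatc
In gish and cno the signal was not in the last 50 bases of the terminal bin but before the end of the bin upstream of it.
gish, bin upstream, plus strand, chr3R:16302687-16302716: aaagaaagcgaaAATAAAcataatttttta
gish, end of the terminal bin, plus strand, chr3R:16304739-16304768: ggtaacttaaaacaatgtaagcaaaccaag
cno, bin upstream, minus strand, chr3R:5172488-5172517: atatttatgagaAATAAAaagttaattata
cno, end of the terminal bin, minus strand, chr3R:5170004-5170033: caagtattgttctttttacaatttaatggg
In the 6 members with the signal, 13 to 23 bases separated it from the end of the bin. AATAAA or ATTAAA was found in the last 50 bases, on the transcribed strand, in 344 of 485 members (70.9%), in 54 of 76 long listed bins (71.1%) and in 5822 of 9373 shorter unlisted bins (62.1%). These matches describe the letters in the window, and no match says only that the letters are absent there.

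The members were of several kinds. Of the 485 members with a position on the genome assembly, 130 (26.8%) held no coding base and 154 (31.8%) began where the bin upstream ended, as an extension of a 3′ UTR would. Both were true of 117, whereas 318 stood apart from the bin upstream and held coding sequence, as a long last exon does. The median coding share of a member was 47.7% and its median GC content 45.0%, compared with 0% and 34.3% in the long listed bins. The median member was 2542 nt long (quartiles 2205 and 3293) and made up 58.1% of the exonic length of its gene, which had a median of 7 bins. TTTTTTT, a run of 7 T (a U-rich stretch in RNA), occurred on the transcribed strand in 193 members (39.8%), 51 long listed bins (67.1%) and 1212 shorter bins (12.9%). TGTANATA, the letters bound by Pumilio, occurred in 227 (46.8%), 52 (68.4%) and 1458 (15.6%). Both counts rise with length, and the 3 sets differ in length.

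The longest members were the 3′ UTR bin of Dop1R1, which encodes a dopamine receptor, at 11904 nt (FBgn0011582, chr3R:14165379-14177282, minus strand), Sdb at 10263 nt, CG42232 at 8106 nt, the merged entry lncRNA:CR43650+mir-8 at 7976 nt and Eip93F, an ecdysone-induced transcription factor gene, at 7736 nt. The Dop1R1 bin held 83.4% ± 1.92 (SD, n = 4) of the counts of the gene in wt embryos and 81.4% ± 2.25 (SD, n = 3) in wt heads, while the gene rose from 20.2 to 109 counts per 1000000 counts of the library (CPM). The members with the most counts were those of the chaperone genes Hsc70-4 and Hsc70-3, of CG13731, of ATPsyndelta and of the proton pump subunit gene Vha16-1. The Hsc70-4 bin was 86.6% coding and took 94.5% ± 0.272 of the counts of its gene in wt embryos and 95.3% ± 0.268 in wt heads. Sdb, 98.5% coding, stood at 78.3% ± 2.04 and 82.8% ± 2.09. The Hsc70-3 bin took 87.4% ± 0.578 in wt embryos and 87.7% in delta-elav, and the Vha16-1 bin 75% ± 0.471 and 75.6%. These bins thus hold most of the counts of their genes in every one of the groups named. In Eip93F the gene rose from 0.759 CPM in wt embryos to 190 CPM in wt heads, with 48.1% ± 11.2 and 48.8% ± 3.45 of the counts in the bin. The bin of lncRNA:CR43650+mir-8, a host transcript of the microRNA mir-8, was at 97.4% ± 0.717 in wt, 93.1% ± 1.04 in delta-elav and 88.2% ± 2.12 in elavmin embryos. It was not called in either mutant against wt by the test of bin usage given below.

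Library depth ranged from 17668742 to 51377771 counts, of which members took 2.40% to 3.32%. The bin that holds the elav coding sequence took 35.2% of elav counts in wt embryos, 18.6% in delta-elav, 38.3% in elavmin and 16.9% in delta-elav,fnenFNE. This bin is not wholly coding, so it does not reach 0. Markers of neurons summed to 2861 to 3365 CPM in the 16 libraries at 14-16 h, to 675 to 1151 CPM at 7-8 h and to 9539 to 11860 CPM in heads, and none of the 13 was at 0 in any group. The 13 include elav itself, at 174 CPM in wt, 576 in delta-elav, 348 in elavmin and 602 in delta-elav,fnenFNE embryos. The narrow range of the sum at 14-16 h is thus not read as an equal content of neurons. Among these 13 genes 8 were lower and 1 was higher in delta-elav than in wt embryos at the gene level, where 11.7% and 11% of all genes were. Photoreceptor markers summed to 73910 to 79460 CPM in wt heads, to 43030 to 43800 CPM in elavmin heads and to only 321 to 379 CPM in delta-elav,fnenFNE heads. Muscle markers ran from 8089 to 10090 CPM in wt heads and from 14010 to 14840 CPM in delta-elav,fnenFNE heads. The part of these differences in the head comparisons was not tested.

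Usage was first compared over all members. For 285 members with enough counts at every stage, the terminal bin was divided by the rest of the gene in each library and the median of the log2 ratios was taken. This median lay between -0.06 and 0.04 in the 4 wt embryo libraries, between -0.06 and 0.04 in delta-elav and between -0.05 and 0.06 in elavmin, so the 3 groups overlapped throughout. It lay between 0.16 and 0.21 in wt heads, above each wt embryo library. In the 65 long listed bins with enough counts, the median over libraries was -2.61 in wt embryos, -3.25 in delta-elav, -3.08 in elavmin and -1.66 in wt heads. Expressed as a share, the median member held 49.7% of the counts of its gene in wt embryos, 49.9% in delta-elav, 50.1% in elavmin and 52.8% in wt heads, and made up 52.5% of the exonic length. The median long listed bin held 14.17%, 9.85%, 10.9% and 23.3%, with 35.4% of the length.

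Some libraries were shifted towards the 3′ end of genes. Across 5099 genes with short unlisted terminal bins, the same log2 ratio was -2.66 to -2.60 in wt embryos, but -2.37 and -2.39 in replicates c and d of delta-elav,fnenFNE at 14-16 h, and -1.89 in replicate b of delta-elav,fnenFNE heads, compared with -2.24 and -2.36 in its other replicates. The members moved with it. Their median was 0.28 and 0.22 in replicates c and d, against 0.07 and -0.03 in a and b, and 0.66 in head replicate b, against 0.30 and 0.19. The index also differed between wt embryos and wt heads, where it was -2.40 to -2.30. Calls that rest on these libraries are given with and without them, apart from some counts under alternative tests.

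**Figure D1:**
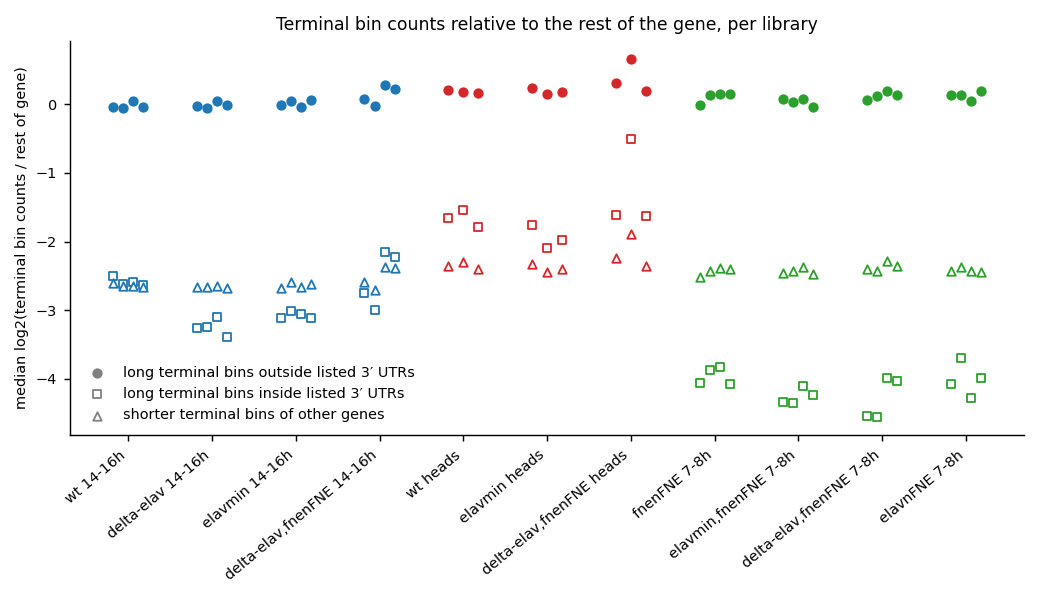
Median log2 ratio of terminal bin counts to the counts of the rest of the gene in each of 41 libraries (points, by group on the x axis), for 285 members, 65 long listed bins and 5099 genes with shorter terminal bins. The members of wt, delta-elav and elavmin embryos lie on the same level between -0.06 and 0.06, whereas the long listed bins fall from -2.61 in wt to -3.25 in delta-elav and reach -1.66 in wt heads.

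The usage of each bin relative to its gene was tested with a quasi-likelihood test of bin usage in edgeR, run over all bins with enough counts, and a bin was called at a Benjamini-Hochberg adjusted p under 0.01. The log2 change compares a bin with its whole gene, the bin included, and understates the change of a bin that holds most of the counts. Of the 487 members, 445 were tested in at least 1 of 11 comparisons, 272 in all 11 and 42 in none. In all, 79 were called at least once. The comparisons with wt at 14-16 h share the 4 wt libraries, and those at 7-8 h share the 4 fnenFNE libraries.

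In delta-elav embryos, 9 members fell and 2 rose relative to their gene, of 421 tested. Of all 58400 bins tested 1.01% were lower and 0.498% higher. The median log2 change of the members was -0.003, whereas it was -0.53 in the 76 long listed bins, of which 46 fell. The members that fell furthest were those of bru3, Bsg, px, CG16779, gish and orb. The first 4 of these are genes that the methods name as affected by strain background. They count as members because the study left them off its list, and they are 4 of the 9 that fell. The share of members that fell is thus not read as a trait of the members in general. In each comparison of genotypes here, the genotype and the background of the strain cannot be told apart, for these 4 or for any other member.

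bru3 encodes an RNA-binding protein of the Bruno/CELF family. Its terminal bin (FBgn0264001, chr3L:13521907-13525210, minus strand, 3304 nt, wholly 3′ UTR) held 8.28%, 7.24%, 7.46% and 7.98% of the counts of the gene in the 4 wt libraries. In delta-elav it held 2.53%, 2.01%, 2.06% and 2.35%. The groups did not overlap, which for named genes is a condition of the rule that chose them and adds no support, and the bin fell by 1.80 on the log2 scale (SE 0.0980, edgeR adjusted p = 1.58e-37). Bsg, the basigin gene, encodes a transmembrane protein of the immunoglobulin superfamily. Its bin (FBgn0261822, chr2L:8110481-8116531, plus strand, 6051 nt) held 10.3%, 9.30%, 9.59% and 8.94% in wt and 2.84%, 3.38%, 2.97% and 2.81% in delta-elav, with no overlap (log2 change -1.67, SE 0.0717, adjusted p = 5.12e-43). px, or plexus, encodes a nuclear protein known for its part in wing vein patterning. Its bin (FBgn0003175, chr2R:22494297-22496398, minus strand, 2102 nt) held 4.98%, 4.58%, 4.46% and 4.21% in wt and 1.61%, 1.65%, 1.61% and 1.48% in delta-elav (log2 change -1.53, SE 0.115, adjusted p = 9.45e-23). Each of the 3 bins was lower in every delta-elav library than in any wt library.

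The CG16779 bin (FBgn0037698, chr3R:9461084-9463409, minus strand, 2326 nt) held 10.4%, 10.2%, 10.5% and 11.3% in wt and 4.34%, 3.49%, 4.01% and 3.45% in delta-elav (log2 change -1.47, adjusted p = 1.55e-18). gish, which encodes a casein kinase I of the gamma type, had a bin (FBgn0250823, chr3R:16302722-16304768, plus strand, 2047 nt) that held 4.64%, 4.17%, 3.98% and 3.40% in wt and 1.93%, 2.29%, 2.70% and 2.06% in delta-elav (log2 change -0.85, adjusted p = 2.80e-11). The last named bin was that of orb, a CPEB-family regulator of translation best known from the ovary (FBgn0004882, chr3R:23260610-23264646, minus strand, 4037 nt). It held 42.1%, 38.4%, 31.3% and 32.8% in wt and 23.99%, 18.9%, 19.6% and 19.1% in delta-elav (log2 change -0.81, adjusted p = 0.000109). The wt libraries of orb spread over more than 10 percentage points but stayed above all of the delta-elav libraries. With the 3′ index as a covariate the orb call was lost (log2 change -0.68, adjusted p = 0.011).

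**Figure D2:**
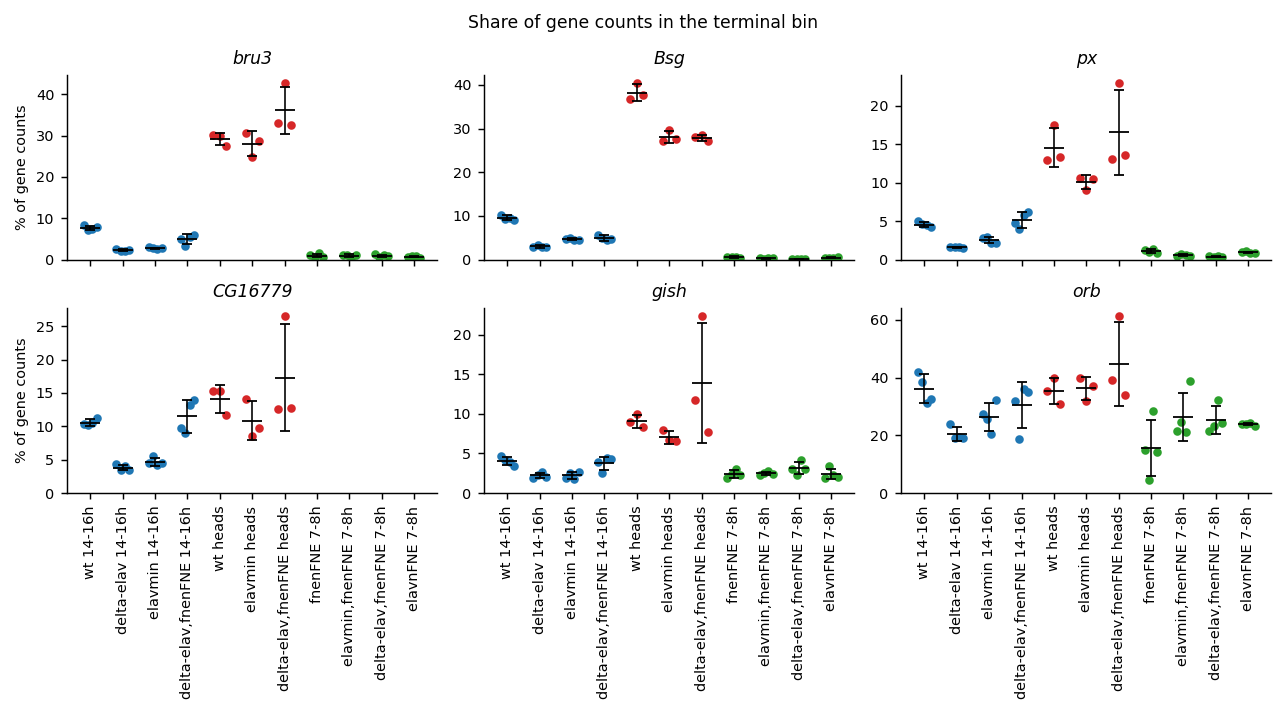
Share of the counts of the gene in the terminal bin (percent, y axis) by group (x axis) for bru3, Bsg, px, CG16779, gish and orb, with points for libraries and bars for the mean ± SD. In bru3 the mean is 7.74% in wt embryos, 2.24% in delta-elav, 2.72% in elavmin and 29.2% in wt heads, and the other genes except orb have the same order of wt embryos below wt heads and above delta-elav.

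The bins upstream differed between these genes. In bru3 and px the terminal bin stood apart from the bin upstream, whereas in Bsg, CG16779, gish and orb it began where that bin ended. In bru3 the 643 nt bin upstream fell as well (log2 change -1.98, adjusted p = 4.00e-24), and in Bsg the 1022 nt bin upstream fell by 1.78 on the log2 scale. In CG16779 the next bin, 3222 nt long, stood at 24.7 CPM in both groups, while the terminal bin dropped from 10.7 to 3.85 CPM. The bin upstream of the terminal bin was not called in px (0.19) or gish (-0.10), either. The gene itself was called in 3 of the 11 genes whose terminal bin was called, where 20.5% of all member genes tested were lower and 11.4% higher.

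**Figure D3:**
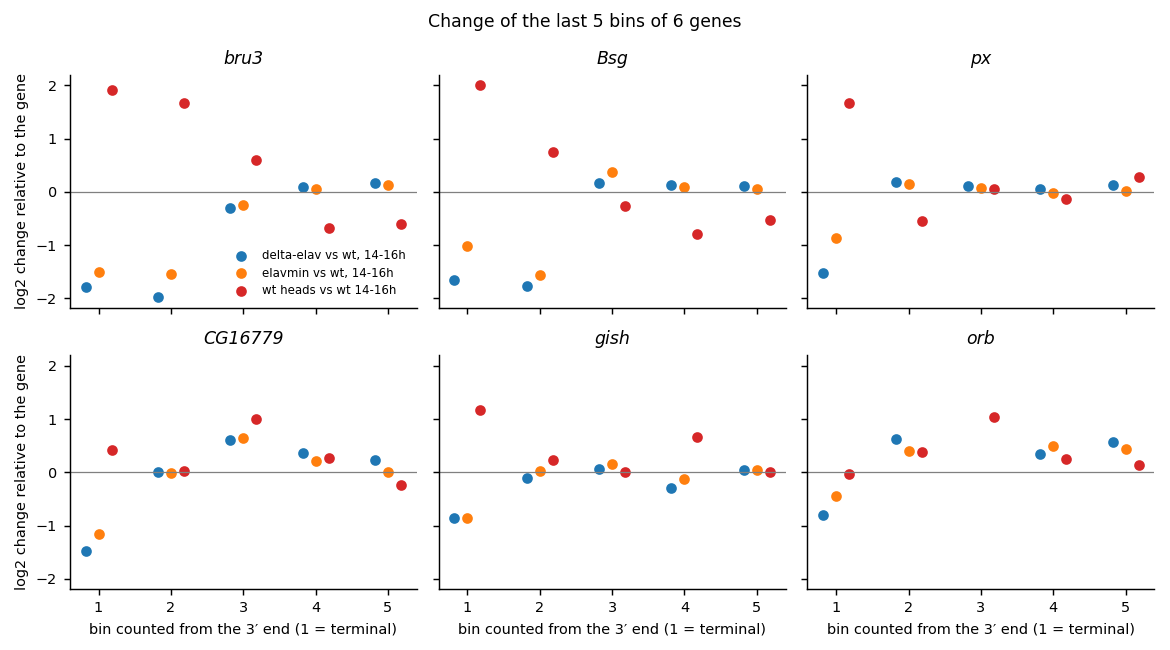
Log2 change of usage (y axis) of the last 5 bins of bru3, Bsg, px, CG16779, gish and orb, counted from the 3′ end (x axis, 1 is the terminal bin), in delta-elav and elavmin embryos and in wt heads, each against wt embryos. In bru3 and Bsg the last 2 bins are lower in delta-elav (-1.80 and -1.98 in bru3), while in CG16779 the terminal bin is lower (-1.47) next to a bin at about 0.

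The other 3 bins that fell in delta-elav, named after their values were seen, were those of CG45263 (15.0% to 9.97%), of krz, which encodes the non-visual arrestin kurtz (26.6% to 19.4%), and of CARPB, a gene for a carbonic anhydrase-related protein (57.3% to 42.8%). Both bins that rose lay over genes of the other strand. The Cks85A bin, 94.4% of which overlaps CG8112, went from 38.0% ± 0.976 to 50.2% ± 1.31 (log2 change 0.40, adjusted p = 0.00408), and the gene CG8112 was higher too (log2 change 0.70). The Vps24 bin, 60.4% of which overlaps MP1, went from 32.3% ± 1.16 to 45.0% ± 1.22 (log2 change 0.48, adjusted p = 4.43e-06), and MP1 was higher by 0.65. The counting setting for strand was not given in the sources used here, but 39 pairs of bins that share at least 90% of both lengths on opposite strands had counts within 1.27-fold of each other, with a median ratio of 1.03. Reads of such overlapping genes cannot be told apart in these counts. The Cks85A call was lost when any of 6 of the 8 libraries was left out (replicates b, c and d of wt, a, c and d of delta-elav), with adjusted p from 0.011 to 0.032. Without the members that overlap an opposite bin, 9 fell and 0 rose of 332 tested, Cks85A and Vps24 being among those left out.

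In elavmin embryos, 8 members fell and 4 rose, of 420 tested, against 0.848% lower and 0.544% higher among all 58987 bins. The edgeR test of the bin against the rest of the gene called 12 lower and 11 higher. The share of all bins under that test is not given here, so this count is not read as a result about the members. bru3 fell to 2.96%, 2.71%, 2.48% and 2.72% (log2 change -1.51, SE 0.0963, adjusted p = 1.56e-30). CG16779 fell to 4.52%, 5.61%, 4.22% and 4.45% (-1.15) and Bsg to 4.77%, 5.01%, 4.57% and 4.49% (-1.02, adjusted p = 6.01e-28). gish (-0.86) and px (-0.86) fell to means of 2.23% ± 0.439 and 2.51% ± 0.383, and orb, at 26.4% ± 4.85, was not called (-0.44, adjusted p = 0.16). Apart from orb, every elavmin library was below every wt library in each of these bins. bru3, CG16779, Bsg and px are again the genes set aside for strain background. They are among the 8 that fell, so the share that fell is again not read as a trait of the members in general. Also lower, and named after their values were seen, were CG5890 (30.1% to 20.5%) and krz (log2 change -0.39).

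The bins of su(sable) and sv were called in elavmin embryos and not in delta-elav embryos. su(sable) encodes a nuclear RNA-binding protein that lowers the level of aberrant transcripts. Its terminal bin (FBgn0003575, chrX:641297-643760, plus strand, 2464 nt, 82.9% coding) held 47.4%, 46.2%, 50.1% and 49.8% in wt, 48.4%, 47.6%, 48.0% and 47.0% in delta-elav and 33.4%, 31.7%, 31.3% and 32.1% in elavmin. It fell in elavmin (log2 change -0.59, adjusted p = 2.57e-09), together with the 3 bins before it (-0.75, -0.72 and -0.56), while the bin of 236 nt before those rose from 6.24 to 17.8 CPM (log2 change 1.18, adjusted p = 5.82e-20). The gene as a whole was called higher in elavmin (log2 change 0.33), and the terminal bin itself went from 42.39 to 35.35 CPM. sv, the Pax2 gene shaven, rose in elavmin (FBgn0005561, chr4:1111288-1113317, plus strand, 2030 nt). Its bin held 13.1%, 14.0%, 12.6% and 11.8% in wt, 11% ± 2.06 in delta-elav and 19.4%, 21.8%, 24.1% and 20.7% in elavmin (log2 change 0.74, adjusted p = 1.38e-06). For su(sable) and sv the elavmin libraries stood apart from both other genotypes. The allele and the background of the elavmin strain cannot be told apart for them either.

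The 3 other bins that rose in elavmin were those of Cals, unc-13 and PNUTS. Cals, the calsyntenin gene on the strand opposite to sv, overlaps the sv bin over 20.1% of its own and went from 0.107% to 0.453% ± 0.146 (log2 change 2.07, adjusted p = 8.55e-05). unc-13, needed for priming synaptic vesicles, went from 1.01% to 1.49% (log2 change 0.56), and 97.6% of its bin overlaps the antisense gene asRNA:CR43425. PNUTS, which encodes a nuclear targeting subunit of protein phosphatase 1, went from 16.7% ± 1.45 to 21.9% ± 0.695 (log2 change 0.39, adjusted p = 0.000796), and its call was lost without wt replicate b (adjusted p = 0.010) or c (0.017). Without members that overlap an opposite bin, 8 fell and 1 rose of 330 tested.

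The direct comparison of delta-elav with elavmin, added after these values were seen, called 4 members lower in delta-elav and 1 higher, of 414 tested, against 0.243% and 0.118% of 57683 bins. Bsg (log2 change -0.65, adjusted p = 3.76e-09) and px (-0.66, adjusted p = 0.000639) were lower in delta-elav than in elavmin, as were sv (-0.94) and Cals (-2.92), and su(sable) was higher (0.57). For bru3 (-0.29, adjusted p = 0.86) and CG16779 (-0.32, adjusted p = 0.89) the bin was not called, and the libraries of the alleles overlapped, which does not show that the alleles act alike.

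In delta-elav,fnenFNE embryos, which lack ELAV and make nFNE, 2 members were lower than in wt and 4 higher, of 422 tested, against 0.342% and 0.363% of 59027 bins. Bsg held 5.73%, 5.02%, 4.40% and 4.6% and remained below all wt libraries (log2 change -0.97, SE 0.118, adjusted p = 5.24e-10). bru3 held 4.86%, 3.303%, 5.50% and 5.97% and was lower than wt (-0.64, adjusted p = 0.00145), but without wt replicate a or c its adjusted p was 0.022 and 0.014, and the edgeR test of the bin against the rest of the gene did not call it (-0.71, adjusted p = 0.025). px held 4.79%, 3.95%, 5.78% and 6.23%, with a log2 change of 0.17 from wt, CG16779 held 9.74%, 9.05%, 13.2% and 13.9% (0.10), and gish held 3.90%, 2.60%, 4.39% and 4.25% (-0.09). None of these 3 was called, and their ranges overlapped wt. In px, CG16779 and gish the replicates c and d, which were shifted towards the 3′ end, gave the highest shares. The members that were higher were Cks85A (0.53), PNUTS (0.53), the merged entry mir-276a+lncRNA:CR46006 (1.08) and Slh (1.43). The Cks85A call was lost without any 1 of the 4 wt replicates (adjusted p from 0.012 to 0.033) and the PNUTS call without wt replicate c (0.013). Without replicates c and d the counts were 2 lower and 2 higher, with Bsg at -0.82, bru3 at -0.91, Cks85A at 0.57 and PNUTS at 0.55, while Slh (1.08, adjusted p = 0.01001) and mir-276a+lncRNA:CR46006 (1.09, adjusted p = 0.052) were not called. Without replicate b of delta-elav,fnenFNE 16 members were called, and without wt replicate c 2 were.

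Set against delta-elav, delta-elav,fnenFNE embryos had 9 members higher and 0 lower, of 418 tested, against 0.497% and 0.107% of 57743 bins. At an unadjusted p under 0.05, 60 members were higher and 0 lower, where 3.81% and 2.26% of all bins were. The edgeR test of the bin against the rest of the gene called 6 higher and 0 lower, where it called 0.298% and 0.0952% of all bins. Both counts are given only with the shifted replicates c and d and are not read as results about the members. With these replicates, 50 of 6409 shorter unlisted terminal bins were called higher and 0 lower (median log2 change 0.08). px rose (log2 change 1.69, SE 0.131, adjusted p = 4.83e-21), as did CG16779 (1.58, adjusted p = 6.82e-13), bru3 (1.16, adjusted p = 1.24e-09) and, among members outside the rule for named genes, Slh (1.13), gish (0.76), CG45263 (0.73), Bsg (0.70, adjusted p = 4.11e-05), rdgB (0.55) and the merged rg+CG15465 (0.46). Without replicates c and d 5 members were called, with px at 1.45, CG16779 at 1.31, bru3 at 0.89, Bsg at 0.84 and CG45263 at 0.60, while Slh (0.78, adjusted p = 0.50), gish (0.53, adjusted p = 0.13), rdgB (0.22) and rg+CG15465 (0.16) were not. With the 3′ index as a covariate 5 were called. Without replicate b, the library least shifted, 27 were called. The gene itself was called for 0 of the 9 genes, where 2.2% of all member genes tested were lower and 1.98% higher. The note on strain background applies to all members here and in the comparison with wt, and px, CG16779, bru3 and Bsg are the genes set aside for it. The shares of Slh, which encodes a Sec1-family protein of vesicle transport, were 3.78%, 3.49%, 5.34% and 5.94%, compared with 1.70% ± 0.442 in wt and 2.1% ± 0.339 in delta-elav.

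In elavmin heads 5 members were lower and 2 higher than in wt heads, of 392 tested, against 0.423% and 0.497% of 55379 bins. The largest drop was in cno, which encodes canoe, the fly afadin of adherens junctions (FBgn0259212, chr3R:5170004-5172479, minus strand, 2476 nt). Its bin held 2.74%, 3.04% and 2.31% in wt heads and 1.33%, 1.03% and 0.869% in elavmin heads (log2 change -1.34, SE 0.168, adjusted p = 1.11e-09). Of the cno bin, 4.77% overlaps dpr16 on the other strand, a gene that was not called in elavmin heads (log2 change -0.19). Ggamma30A, the gene of a G protein gamma subunit known from photoreceptors, fell from 0.499% ± 0.0721 to 0.275% ± 0.0209 (log2 change -0.86), and its gene was lower too. The bin of mamo, a zinc finger gene, held 10.1%, 10.8% and 8.90% in wt and 6.12%, 5.14% and 5.63% in elavmin heads (FBgn0267033, chrX:13846116-13850847, minus strand, 4732 nt, log2 change -0.82, adjusted p = 6.12e-05). px (-0.53, adjusted p = 0.00548) and su(sable) (-0.49, adjusted p = 0.00941) were lower as well, with su(sable) at 53.1%, 52.8% and 50.4% in wt and 38.0%, 35.8% and 37.3% in elavmin heads. As a gene, su(sable) was called higher in elavmin heads (log2 change 0.31).

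cpx and sv rose in elavmin heads. cpx encodes complexin, which binds the SNARE complex and controls transmitter release. Its bin (FBgn0041605, chr3R:4302526-4304604, plus strand, 2079 nt) held 1.995%, 2.30% and 2.04% in wt heads, 4.25%, 3.95% and 3.95% in elavmin heads and 5.85%, 6.17% and 5.07% in delta-elav,fnenFNE heads, and no library of 1 group lay in the range of another. The log2 change was 0.93 in elavmin (SE 0.111, adjusted p = 8.52e-11) and 1.44 in delta-elav,fnenFNE heads (SE 0.246, adjusted p = 1.03e-05), or 1.37 without replicate b (adjusted p = 2.08e-10). The gene was lower in both (2933 CPM in wt, 1906 in elavmin and 1999 in delta-elav,fnenFNE), whereas the bin itself stood at 62.2, 77.1 and 115 CPM. sv held 16.1%, 12.6% and 12.95% in wt and 26.3%, 25.97% and 23.2% in elavmin heads (log2 change 0.86, adjusted p = 8.18e-07).

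Of the bins that fell furthest in delta-elav or elavmin embryos, px and su(sable) were called in elavmin heads and the others were not. bru3 held 30.2%, 29.99% and 27.5% in wt and 30.6%, 24.7% and 28.8% in elavmin heads and was not called (log2 change -0.07, adjusted p = 1.0). Bsg held 36.7%, 40.4% and 37.6% in wt and 27.1%, 29.6% and 27.6% in elavmin heads, with no overlap of the libraries, but it missed the threshold (-0.45, adjusted p = 0.022). CG16779 (-0.41, adjusted p = 0.57), gish (-0.37, adjusted p = 0.19) and orb (0.03, adjusted p = 1.0) were not called. The difference between heads and 14-16 h embryos in the effect of elavmin was tested as an interaction, which called 0 members lower and 2 higher of 432, against 0.112% and 0.266% of 63167 bins. bru3 was 1.44 log2 units less reduced in heads (SE 0.157, adjusted p = 3.98e-14) and cpx 0.69 higher (SE 0.154, adjusted p = 0.00297), while Bsg (0.57, adjusted p = 0.012) missed the threshold. Without wt replicate c or d or elavmin replicate c or d at 14-16 h, or without wt replicate a or c or elavmin replicate c of heads, 1 member was called, and without elavmin embryo replicate b 4 were.

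In delta-elav,fnenFNE heads 1 member was lower and 1 higher than in wt heads, of 393 tested, against 0.552% and 0.443% of 55575 bins. The lower was CG13197 (8.02% to 3.07%, log2 change -1.40, adjusted p = 0.000863), named after its values were seen, and the higher was cpx. Bsg, at 28.0%, 28.5% and 27.1%, was below all 3 wt libraries but was not called (-0.45, adjusted p = 0.43). bru3 held 33.1%, 42.7% and 32.5% (0.34), with the highest value in the replicate that was shifted towards the 3′ end. cno was at 1.04%, 2.20% and 1.32% (-0.89, adjusted p = 0.053). Without replicate b, 4 members were called, with CG13197 at -1.23 (adjusted p = 0.00238), and without wt replicate a or c, 1 was. The test of the difference between heads and 14-16 h embryos in the effect of delta-elav,fnenFNE called 1 member lower and 2 higher of 436, against 0.275% and 0.278% of 64106 bins. Slh was -1.86 (SE 0.330, adjusted p = 0.00135), bru3 0.97 (SE 0.231, adjusted p = 0.00639) and cpx 1.55 (SE 0.250, adjusted p = 9.95e-07), and only 1 was called without wt embryo replicate c or wt head replicate a or b. Without the 3 shifted libraries together (embryo replicates c and d and head replicate b), Slh was -1.81 (adjusted p = 0.00689), bru3 1.08 (adjusted p = 2.90e-06) and cpx 1.598 (adjusted p = 1.98e-09). Without head replicate b alone bru3 (0.80, adjusted p = 0.011) was not called.

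**Figure D4:**
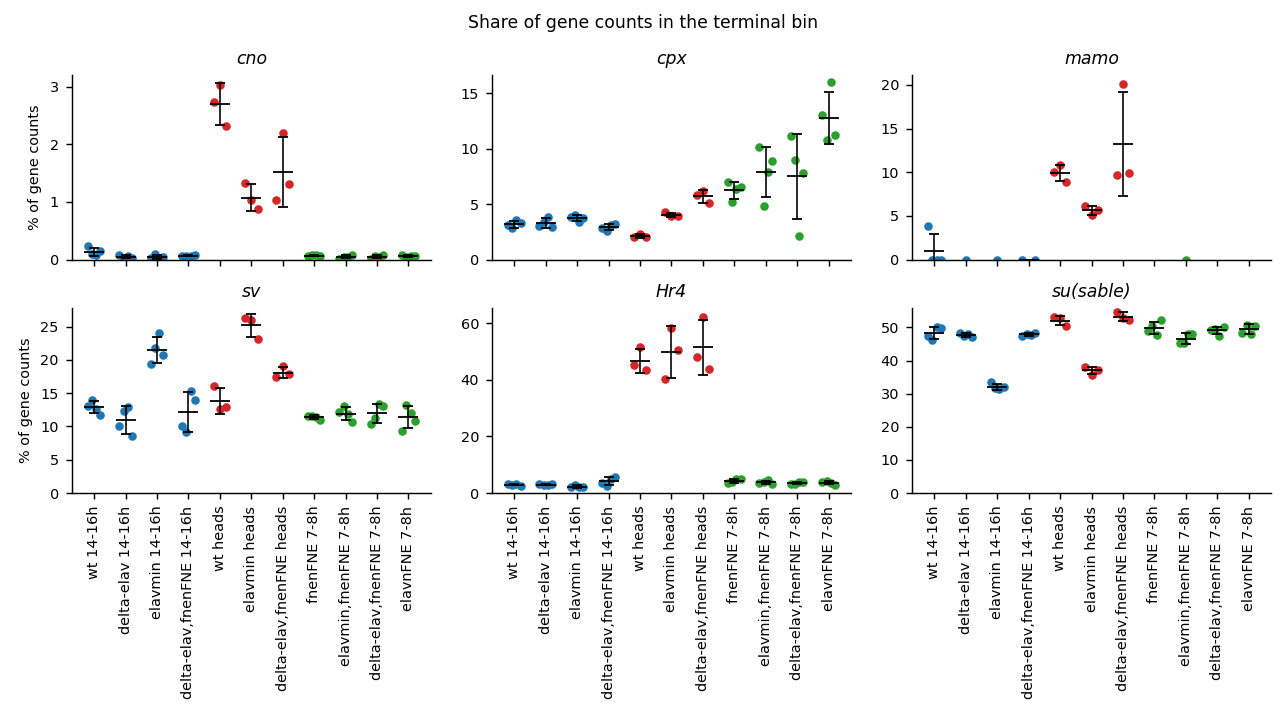
Share of the counts of the gene in the terminal bin (percent, y axis) by group (x axis) for cno, cpx, mamo, sv, Hr4 and su(sable), with points for libraries and bars for the mean ± SD, where libraries with under 20 counts of the gene are not drawn. cpx rises from 2.11% in wt heads to 4.05% in elavmin and 5.70% in delta-elav,fnenFNE heads, and su(sable) is lower in elavmin embryos (32.1%) and elavmin heads (37.1%) than in wt (48.4% and 52.1%).

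At 7-8 h AEL few members differed from fnenFNE, and the main ones, Bsg and px, were among the genes set aside for strain background. In delta-elav,fnenFNE 2 were lower and 1 higher, of 303 tested, against 0.222% and 0.413% of 44606 bins. Bsg held 0.622%, 0.603%, 0.679% and 0.407% in fnenFNE and 0.110%, 0.120%, 0.223% and 0.206% in delta-elav,fnenFNE (log2 change -1.81, SE 0.217, adjusted p = 4.30e-10). px held 1.19%, 0.970%, 1.39% and 0.864% in fnenFNE and 0.438%, 0.297%, 0.478% and 0.346% in delta-elav,fnenFNE (-1.52, SE 0.166, adjusted p = 7.86e-09). Neither gene overlapped between the groups. The higher was Psi, a splicing regulator gene named after its values were seen, whose ranges overlapped (0.54, adjusted p = 0.00842). Without delta-elav,fnenFNE replicate b 5 members were called.

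In elavmin,fnenFNE at 7-8 h the same pair of bins was called, 2 lower and 0 higher of 310 tested, against 0.102% and 0.051% of 45082 bins. px stood at 0.477%, 0.705%, 0.556% and 0.439% (-1.04, SE 0.158, adjusted p = 0.000396) and Bsg at 0.329%, 0.208%, 0.296% and 0.373% (-0.94, SE 0.194, adjusted p = 0.00521). The px call was lost without fnenFNE replicate a or c or without elavmin,fnenFNE replicate d (adjusted p from 0.010 to 0.026). The Bsg call was lost without fnenFNE replicate a, b or c or elavmin,fnenFNE replicate a, b or c (0.016 to 0.097), and without fnenFNE replicate a or c 0 members were called. In elavnFNE 0 members were called of 311 tested, against 0.193% lower and 0.12% higher of 45037 bins. At an unadjusted p under 0.05, 8 were lower and 5 higher, where 1.51% and 1.27% of all bins were. The edgeR test of the bin against the rest of the gene called 2 lower and 0 higher, where it called 0.271% and 0.187% of all bins, and 1 member was called without fnenFNE replicate a or d. Bsg held 0.252%, 0.397%, 0.321% and 0.568% in elavnFNE (-0.60, SE 0.169, adjusted p = 0.35) and px 0.918% ± 0.127 (-0.29, SE 0.160, adjusted p = 1.0). bru3 was at 0.933% in fnenFNE, 0.909% in elavmin,fnenFNE, 0.899% in delta-elav,fnenFNE and 0.720% in elavnFNE, and was called in none.

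The largest changes of members were between wt heads and wt embryos and between embryos of different ages. Heads and whole embryos differ in tissue as well as in age, and these cannot be told apart. In wt heads 13 members were lower and 46 higher than in wt embryos at 14-16 h, of 432 tested, against 7.07% and 7.42% of 61971 bins. The cno and mamo bins, 2 of the 46, had too few counts to be tested within embryos and passed the filter through the heads alone. Among the 421 members that were also tested within embryos 44 were higher (10.5%), above the 6.81% of 58650 bins tested likewise. The share of members that was lower (3.01% of the 432) was below that of all bins. Other terminal bins were higher more often than the members (10.6% of the 432). Of 6950 shorter unlisted terminal bins 13.2% were higher and 2.46% lower, and of 76 long listed bins 65.8% and 1.32%. The edgeR test of the bin against the rest of the gene called 18 lower and 128 higher. Without the share of all bins under that test, which is not given here, this count is not read as a result about the members. Bsg rose from 9.53% ± 0.563 to 38.2% ± 1.90 (log2 change 2.0, adjusted p = 4.86e-51) and bru3 from 7.74% ± 0.475 to 29.2% ± 1.5 (1.91, adjusted p = 2.09e-44). px rose to 14.6% ± 2.53 (1.67), gish to 9.08% ± 0.815 (1.16) and CG16779 to 14.1% ± 2.11 (0.41, adjusted p = 0.00117), whereas orb, at 35.4% in heads and 36.1% in embryos, did not differ beyond its spread (-0.03, adjusted p = 0.95).

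The naming rule, which asks for mean counts of at least 50 in the bin and in the rest of the gene and skips merged genes, gave cno, Hr4, Cals, mamo, Maf1 and Bsg among the bins that were higher. nrm, under that count, rose by 2.26 on the log2 scale (adjusted p = 2.84e-15), more than Bsg. The cno bin had 27, 12, 8 and 16 counts in the wt embryo libraries and 168, 187 and 165 in wt heads, which were 0.139% and 2.70% of the counts of its gene. For cno and mamo, which were not tested within embryos, no fold or p is given and their place in the order says nothing. In cno the bin upstream, which ends with the AATAAA printed above, went from 16.6 to 19.4 CPM and was not called. Hr4 encodes a nuclear receptor of the ecdysone response. Its bin (FBgn0264562, chrX:2005463-2007956, plus strand, 2494 nt) held 2.89% ± 0.220 in wt embryos and 45.2%, 51.5% and 43.3% in wt heads (4.08, SE 0.212). The gene was lower in heads by 3.75 on the log2 scale, so the bin itself went only from 1.78 to 2.49 CPM. Maf1, a repressor of RNA polymerase III, rose from 3.78% ± 0.628 to 19.0% ± 1.48 (2.33, adjusted p = 4.50e-23) and Cals to 1.03% ± 0.144 (3.27). The mamo bin had 1 count in all 4 wt embryo libraries together. With the 3′ index as a covariate Hr4 (adjusted p = 0.040) and Cals (0.041) were not called, and 3 members were lower and 2 higher in all. The index differs between the embryo and head groups as a whole, so age, tissue and index can hardly be told apart in this comparison.

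By the same rule, the members named among those that fell were ATPsyndelta, Tango9, CG13272, ttk, CG43110 and PNUTS. The rule passed over CG14459 (-3.44, adjusted p = 0.000292, with a mean of 6 counts in the bin) and the merged entries Nrk+ND-MWFE (-2.21, adjusted p = 1.65e-31) and Tdg+lncRNA:CR43958 (-0.78), which fell further than some of these. The ATPsyndelta bin (FBgn0028342, chrX:10214555-10217393, plus strand, 2839 nt) held 91.3%, 92.4%, 91.3% and 91.4% of the counts of this ATP synthase gene in wt embryos and 0.151%, 0.267% and 0.216% in wt heads (log2 change -8.76, SE 0.152). It overlaps CG2962 on the other strand over 47.8% of its length, and the mean counts of the CG2962 bin and the ATPsyndelta bin were 58320 and 58360. From wt embryos to wt heads the terminal bin went from 2835 to 0.613 CPM. The next bins upstream in ATPsyndelta went from 10.6 to 15.5, 52.2 to 63.4, 88.0 to 96.4 and 76.3 to 79.7 CPM. CG2962 as a gene was lower by 19.5 on the log2 scale. Which of the 2 genes the reads came from was not tested. Tango9, whose bin lies to 83.6% over GC1 and GC2, fell from 64.7% ± 3.64 to 23.0% ± 1.77 (-1.49). CG43110 overlaps veil over 48.1% of its bin and fell from 96.5% ± 0.305 to 45.7% ± 1.81 (-0.85). No opposite bin overlapped the other 3. CG13272 fell from 80.7% ± 2.31 to 31.0% ± 3.47 (-1.40), ttk, the zinc finger repressor gene tramtrack, from 10.5% ± 0.611 to 3.98% ± 0.856 (-1.40, adjusted p = 1e-16), and PNUTS from 16.7% ± 1.45 to 10.4% ± 0.422 (-0.69). With the 3′ index as a covariate CG13272 turned to 0.72 (adjusted p = 1.0), and Tango9 (adjusted p = 0.0102), CG43110 (0.73) and PNUTS (0.98) were not called. Without the members that overlap an opposite bin, 8 fell and 31 rose of 340 tested.

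The bins that rose in heads lay mostly next to another bin of the same 3′ end. Of the 46, cno and mamo included, 33 abutted the bin upstream and held no coding base, from 104 such members tested (5 fell), with a median log2 change of 0.17. The 33 and the 104 include cno and mamo, which passed the filter through the heads alone, so these counts are a description and not a test. Of the 289 tested members that stood apart and held coding sequence, 7 rose and 6 fell (median 0.06). In delta-elav embryos 5 of the first kind fell and 2 rose of 100 tested (median -0.05), and 2 of the second fell of 283 (median -0.0001). Over all shorter unlisted terminal bins tested in wt heads, 13.2% were higher and 2.46% lower.

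From 7-8 h to 14-16 h in delta-elav,fnenFNE, 15 members fell and 22 rose, of 421 tested, against 4.79% and 7.67% of 57269 bins. Of the 22, 4 had too few counts to be tested within 7-8 h, and none of these is named here. Among the 301 members that were also tested within 7-8 h 18 rose (5.98%), where 6.7% of 43967 bins did. The balance depended on the test. The edgeR test of the bin against the rest of the gene called 40 lower and 24 higher, and with the 3′ index as a covariate 12 were lower and 34 higher. Shares of all bins in these 2 settings are not given here, so the counts are not read as results about the members. Bsg rose from 0.165% ± 0.0579 to 4.94% ± 0.588 (log2 change 4.89, SE 0.192, adjusted p = 5.31e-47) and px from 0.390% ± 0.0827 to 5.19% ± 1.02 (3.72, SE 0.160, adjusted p = 3.07e-44). bru3 rose from 0.899% to 4.91% ± 1.16 (2.50), and ATPsyndelta, with the overlap described above, from 0.490% ± 0.300 to 92.1% ± 0.490 (7.62). Slh fell from 12.9% ± 1.78 to 4.64% ± 1.19 (-1.47, adjusted p = 2.55e-14), mmd, which encodes a metalloprotease of the ADAM family, from 55.3% ± 22.2 to 20.5% ± 2.52 (-1.41), and CG40160 from 28.2% ± 3.14 to 14.4% ± 0.695 (-0.96). The mmd call was lost without 7-8 h replicate d (adjusted p = 0.017), where the gene had under 1 CPM. Without replicates c and d at 14-16 h 19 members fell and 16 rose, with Bsg at 5.03, px at 3.48, bru3 at 2.23, ATPsyndelta at 7.62, Slh at -1.82, mmd at -1.56 and CG40160 at -0.96, and these 7 were called.

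**Figure D5:**
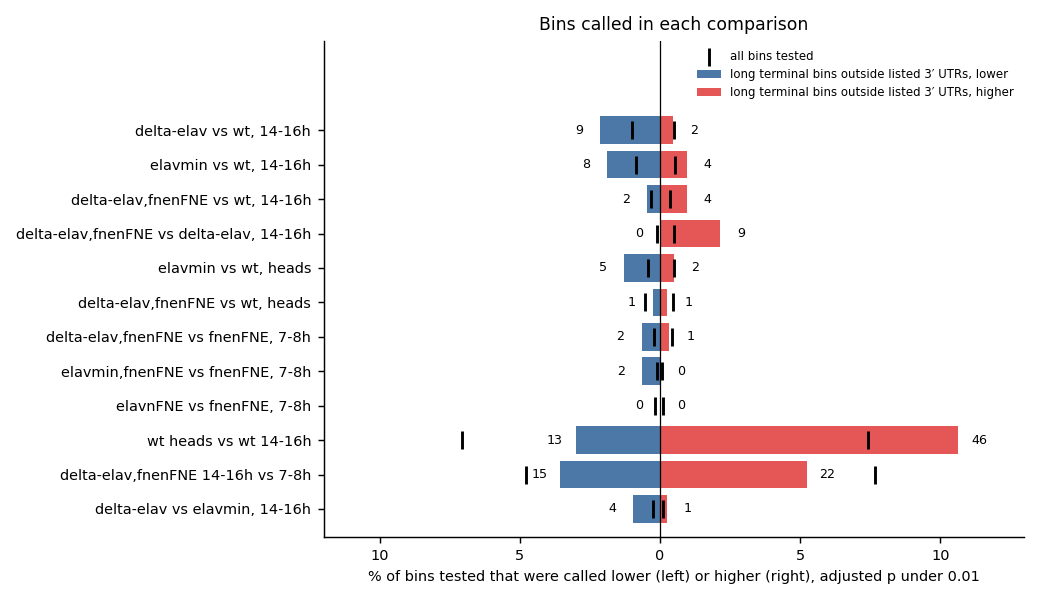
Percent of tested members called lower and higher (bars) in each comparison, with ticks for the percent of all tested bins. In delta-elav embryos 2.14% of members and 1.01% of all bins are lower, and in wt heads 10.6% of members (cno and mamo included) and 7.42% of all bins are higher. The members lower in delta-elav include bru3, Bsg, px and CG16779, which the study left off its list for strain background.

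Gene groups were described by the number of members called. Of 15 members in genes of axon guidance and adhesion (among them robo1, unc-5, sdk and Nlg1), 0 were called in delta-elav and 0 in elavmin embryos, with medians of -0.03 and -0.003. At the shares of all bins called in these comparisons, a count of 0 in lists of this size says nothing particular about them, and the same holds for the other lists. The 2 furthest from 0 in delta-elav were DIP-delta (-0.23, adjusted p = 0.84) and beat-IIIc (-0.15, adjusted p = 1.0). In wt heads 1 of 15 rose, the merged entry DIP-alpha+CG2875 (0.99, adjusted p = 7.20e-09). Of 7 members in RNA-binding protein genes, 2 fell in delta-elav (bru3 and orb) and 1 in elavmin (bru3), and 2 rose in wt heads (bru3 and mbl, at 0.34). Of all bins 1.01% were lower in delta-elav, 0.848% lower in elavmin and 7.42% higher in wt heads, and a count of 1 or 2 in a list this short is not read as a result about the list. bru3 is a gene set aside for strain background, and the orb call was lost with the 3′ index as a covariate (adjusted p = 0.011). Of 14 members in transcription factor genes, 13 were tested in delta-elav and 0 called, and in wt heads Hr4 rose and ttk fell. Of 25 members in genes of ion channels, receptors and synapses, 0 were called in delta-elav, where unc-13 stood at 0.50 (adjusted p = 0.010) and mGluR at -0.29. In elavmin embryos unc-13 rose, and in heads of both mutants cpx rose. In wt heads 2 of the 25 fell and 2 rose, with unc-13 at 1.46 and cpx at -0.59 the furthest. Of 15 members in signalling pathway genes 0 were called in any of these comparisons, and the furthest in wt heads was Egfr (0.32, adjusted p = 0.017).

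The genes of the members were also compared as a whole, with gene counts summed over bins and a threshold of 0.05 on the adjusted p. In delta-elav embryos 94 of 458 member genes (20.5%) were lower and 52 (11.4%) higher, where 11.7% and 11% of all 11345 genes were. In elavmin embryos 124 of 460 (27.0%) were lower and 29 (6.3%) higher, against 14.4% and 15.2% of 11506 genes. In delta-elav,fnenFNE embryos 107 of 458 (23.4%) were lower and 30 (6.55%) higher, against 12.8% and 12.8%. The median log2 change of the member genes in these comparisons was -0.02, -0.09 and -0.10. The genes of members were thus lower more often than genes in general in all 3 mutants at 14-16 h, a description of genes with a long terminal bin off the list. Between delta-elav,fnenFNE and delta-elav, 10 of 455 were lower and 9 higher, against 1.94% and 2.85%.

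In elavmin heads 55 of 443 genes (12.4%) were lower and 33 (7.45%) higher, against 10% and 10.2%. In delta-elav,fnenFNE heads 83 of 441 (18.8%) were lower and 61 (13.8%) higher, against 13.8% and 14.4%. At 7-8 h 6 and 7 of 397 were lower and higher in delta-elav,fnenFNE (1.67% and 1.29% of all genes), 10 and 19 of 397 in elavmin,fnenFNE (2.57% and 3.83%) and 14 and 24 of 400 in elavnFNE (5.35% and 4.37%). In wt heads 198 of 463 (42.8%) were lower and 221 (47.7%) higher, against 44.2% and 40.9%, and between 7-8 h and 14-16 h in delta-elav,fnenFNE 170 of 459 (37.0%) were lower and 251 (54.7%) higher, against 41.9% and 48.2%. Of the 59 members called in wt heads, 53 belonged to a gene that was called itself.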

How the data were processed

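The deposited files hold raw read counts per exon bin for 41 libraries, which the authors made from stranded mRNA libraries processed with snakePipes and counted with HTSeq on the exons of Ensembl 96 (dm6). STAR, Subread and featureCounts stand in the submitters' processing notes. The strand setting of the counting was not given in the sources used here. The listed regions come from separate counts on annotated 3′ UTRs, from which the authors removed a few genes, CG16779, px, bru3 and Bsg among them, for differences in strain background. Repeated columns of a library held identical counts and were used once, and the authors' own columns of fold changes and p-values were not used. Members, gene lists and tests were chosen with earlier results of these data known. No replicate pair agreed within sampling noise.

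Bin usage was tested per comparison with edgeR 4.0.16 (R 4.3.3, TMM, glmQLFit, diffSpliceDGE, two-sided) on the samples compared, with p-values adjusted by the Benjamini-Hochberg method over the bins of the whole table and a threshold of 0.01. The SE is the absolute log2 change divided by the square root of F. Gene counts are sums over bins, in which a read over several bins counts more than once, and were tested with glmQLFTest at 0.05. CPM are counts scaled to a library total of 1000000 bin counts. Ratios of a bin to the rest of its gene used a pseudocount of 0.5. Counting error alone limits bins with few counts, and the results give the depth behind only some low values. Mean bin counts were 42.4 for Cals in elavmin embryos and 43.5 for CG13197 in delta-elav,fnenFNE heads, each against wt. In delta-elav,fnenFNE embryos against wt they were 44.6 for Slh and 38.75 for mir-276a+lncRNA:CR46006. At 7-8 h they were 56.5 for Bsg and 66.6 for px in delta-elav,fnenFNE, and 67.6 and 74 in elavmin,fnenFNE, against fnenFNE.

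Genes were named by rule. Among tested members with mean counts of at least 50 in the bin and in the rest of the gene and group ranges of the share that did not overlap, these were the 6 called bins with the largest drop and the 6 with the largest rise in delta-elav, elavmin and wt heads, each against wt embryos, and 3 each way elsewhere. The 5 longest and the 5 most counted members were added, and merged genes were skipped except among these. DESeq2 1.42.0, DESeq2 size factors, no count filter, a 3′ coverage index as covariate, a replicate block, other thresholds and leaving out libraries were alternatives. The tests were tried on simulated counts. Python 3.11.15 with pandas 2.3.3 drew the summaries.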

Additional observations from a re-analysis of the deposited data

Results flagged for a closer look

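In 7 of 151 groups of 4 libraries, 1 library lay far from the other 3 by Dixon's test, which chance does in about 1 in 20 groups. orb was at 23.99% in delta-elav replicate a and at 18.9% to 19.6% in the others. ATPsyndelta was at 92.4% in wt embryo replicate b and at 91.3% to 91.4% in the others. Hr4 was at 3.02% in elavmin embryo replicate b and at 2.03% to 2.13% in the others. At 7-8 h, fnenFNE replicate d was low for Cals (0.0591%, others 0.134% to 0.138%) and for Maf1 (2.27%, others 3.99% to 4.30%), and elavmin,fnenFNE replicate b was high for Maf1 (4.95%, others 3.98% to 4.11%). The median log2 ratio over all members was -0.0144 in fnenFNE replicate a and 0.13 to 0.15 in the others.

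The effect of a genotype differed between heads and 14-16 h embryos, by edgeR's interaction test, for bru3 and cpx in elavmin (differences of 1.44 and 0.69 on the log2 scale) and for Slh, bru3 and cpx in delta-elav,fnenFNE (-1.86, 0.97 and 1.55). In embryos bru3 was lower than wt in all 4 elavmin libraries, whereas the head libraries overlapped.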

How the results depend on the processing

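Counts are members called, lower and higher together. They stand without the share of all bins in each setting, so they show how the calls depend on the setting and are not read as results about the members. With the bin tested against the rest of the gene, an alternative added after seeing the data, they were 24 in delta-elav (11 in the report), 23 in elavmin (12), 17 in elavmin heads (7), 2 in elavnFNE (0), 146 in wt heads (59), 64 between 14-16 h and 7-8 h (37, with the balance turned to 40 lower and 24 higher) and 8 between delta-elav and elavmin (5). DESeq2 called 19 in elavmin and 110 in wt heads. With the 3′ coverage index as a covariate the counts were 5 in delta-elav,fnenFNE against delta-elav (9), 2 in elavnFNE (0), 5 in wt heads (59), and 5 and 6 in the tests of the difference between heads and embryos for elavmin (2) and delta-elav,fnenFNE (3). In wt heads this covariate turned CG13272 from -1.40 to 0.72 (adjusted p = 1.0), and the cause was not tested. With a minimum log2 change of 0.5, 7 were called in delta-elav, and at an adjusted p under 0.05 there were 6 in delta-elav,fnenFNE at 7-8 h and 4 in elavnFNE. Without replicates c and d of delta-elav,fnenFNE at 14-16 h 5 were called against delta-elav. Without all 3 shifted libraries the test of the difference for delta-elav,fnenFNE called 3, as with them. Without members that overlap an opposite bin 39 were called in wt heads and 3 between delta-elav and elavmin. Leaving out each library in turn gave 9 to 12 in delta-elav, 10 to 14 in elavmin, 2 to 16 in delta-elav,fnenFNE against wt and 6 to 27 against delta-elav, 5 to 6 in elavmin heads, 1 to 4 in delta-elav,fnenFNE heads, 2 to 5 in delta-elav,fnenFNE, 0 to 2 in elavmin,fnenFNE and 0 to 1 in elavnFNE at 7-8 h, 48 to 61 in wt heads, 27 to 38 between 14-16 h and 7-8 h, 4 to 5 between delta-elav and elavmin, and 1 to 4 and 1 to 3 in the tests of the difference. DESeq2 size factors and no filter on low counts left each count within 1.5 times. Replicate letters did not pair the libraries (correlations of same-letter deviations from -0.31 to 0.39), and with the replicate block the counts were 12, 11, 7, 8, 10, 2, 2, 2, 0, 50, 37, 5, 3 and 2, in the order of the leave-one-out ranges above. Of 52 named changes, 1 lost its call under the block (mamo in wt heads) and 1 with the bin tested against the rest of the gene (bru3 in delta-elav,fnenFNE against wt). With the index as covariate 9 lost their call, and CG13272, which turned, was not called either.

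Depth limits the members of genes with few counts, above all at 7-8 h, where 303 to 311 were tested against 414 to 422 between genotypes at 14-16 h.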
